A study of Mus musculus with 13 samples.

Results

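The Klf family is a group of zinc-finger transcription factors, and 10 of its genes are described here: Klf2, Klf3, Klf4, Klf5, Klf6, Klf7, Klf9, Klf10, Klf13 and Klf16. They were taken by gene symbol from the deposited read count table, which held 24495 genes. All 10 were in the table and all 10 passed the filter on low counts, beside 14607 genes tested in all. RNA-seq was run on mouse embryonic fibroblasts (MEFs) taken at embryonic day 12.5 from the background given as V6.5 129XBI/6, and every group carried the Tet2-/- genotype, OKSM and rtTA. OKSM stands for Pou5f1, Klf4, Sox2 and Myc, placed under doxycycline control, so that Klf4 RNA can come from the cassette as well as from the cell's own gene. The 4 groups were Untreated MEFs that were not reprogrammed (n = 3), and cultures at day 5 of reprogramming after infection with the empty pMXs retrovirus (n = 3), with Tet2-WT, the wild-type gene (n = 3), or with Tet2-E, a mutant that the labels call stalling (n = 4). The series text leaves unclear whether the Untreated cells also carry an empty vector. Day 5 cultures grew on mitomycin-treated feeder MEFs with LIF (1000 U/mL), 1 µM PD0325901 (an inhibitor of the kinases that activate ERK), 3 µM CHIR99021 (an inhibitor of GSK3) and 2 µg/mL doxycycline, and all cells were kept in 5% oxygen. The labels name no removal of feeder cells, so RNA of feeders may be among what was counted (its share was not measured). The labels also do not say whether replicates were separate cultures. In bulk RNA, fewer cells of a type and less RNA per cell cannot be told apart.

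Klf proteins bind GC-rich and CACCC-type DNA through 3 zinc fingers near the carboxyl end, and the fingers are so alike that members can compete for the same sites. What a member does there depends on the rest of the protein. Klf2, Klf4 and Klf5 support self-renewal of mouse embryonic stem cells and can stand in for each other there, and Klf4 is the member used in the reprogramming cocktail. Klf6 and Klf10 are induced quickly by serum and growth factors, and Klf10 is a known target of TGF-beta. Klf9, Klf10, Klf13 and Klf16 carry a motif that binds the Sin3 corepressor, while Klf3 represses through the CtBP proteins.

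The promoters of 4 members are shown because these 4 changed against Untreated cells in every day 5 group and stood in the promoter table. The stretches run from 250 to 31 bases before the RefSeq transcription start (GRCm38.p6), 5′ to 3′ on the gene's strand, and 7 of the 10 members matched that table by symbol. Capitals mark each match to CCNCNCCC, a Klf-type motif, on either strand.
Klf2: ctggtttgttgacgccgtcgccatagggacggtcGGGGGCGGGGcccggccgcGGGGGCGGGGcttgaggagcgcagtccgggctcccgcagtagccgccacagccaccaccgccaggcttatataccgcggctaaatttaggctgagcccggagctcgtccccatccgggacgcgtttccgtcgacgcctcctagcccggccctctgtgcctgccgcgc
Klf4: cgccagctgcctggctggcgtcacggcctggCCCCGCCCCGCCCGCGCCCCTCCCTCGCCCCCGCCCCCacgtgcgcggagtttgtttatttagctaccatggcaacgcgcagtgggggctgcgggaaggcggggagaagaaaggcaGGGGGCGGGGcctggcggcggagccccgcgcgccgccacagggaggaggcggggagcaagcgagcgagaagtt
Klf6: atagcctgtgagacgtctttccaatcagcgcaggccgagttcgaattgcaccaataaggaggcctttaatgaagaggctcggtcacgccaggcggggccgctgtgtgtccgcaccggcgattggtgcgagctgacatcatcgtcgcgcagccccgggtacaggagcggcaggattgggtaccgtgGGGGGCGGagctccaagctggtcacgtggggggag
Klf9: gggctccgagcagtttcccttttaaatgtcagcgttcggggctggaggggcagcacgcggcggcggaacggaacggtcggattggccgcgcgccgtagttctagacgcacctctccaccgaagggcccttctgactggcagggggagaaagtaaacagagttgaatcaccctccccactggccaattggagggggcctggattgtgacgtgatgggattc
The stretches lie at chr8:72318812-72319031 (plus strand) for Klf2, chr4:55532506-55532725 (minus strand) for Klf4, chr13:5861239-5861458 (plus strand) for Klf6 and chr19:23140976-23141195 (plus strand) for Klf9. Overlapping matches were counted separately, and Klf4 held 9, Klf2 held 4, Klf6 held 1 and Klf9 held 0. Of the 32851 promoters in the table, 41% held at least 1 match in the same 220-base window and 13.2% held 3 or more. The GC content of the stretches was 71.4% for Klf2, 74.5% for Klf4, 63.2% for Klf6 and 61.4% for Klf9, against a median of 51.8% over all promoters. CACCC, searched on both strands, was in the Klf9 stretch once and in none of the other 3 printed here, against 47.8% of all promoters; its letters can form part of a CCNCNCCC match. The STAT-type motif TTCNNNGAA, which reads the same on both strands, was in none of the 4, against 6.27% of all promoters. Klf2 and Klf4 both carry GC-rich stretches with several matches. Klf4 counts can include cassette RNA, which is under doxycycline control, and a link between these matches and RNA levels was not tested.

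Library totals ran from 14052646 to 26265382 counts. Fibroblast identity was checked on 11 marker genes. Their summed level was 37690 to 40570 CPM (counts scaled to a common library total) in Untreated cells. It was 16180 to 18370 CPM (pMXs), 10260 to 11970 CPM (Tet2-WT) and 13860 to 14990 CPM (Tet2-E). Most of the sum came from Col1a1, Col1a2 and Col3a1 (18840, 11130 and 5672 CPM in Untreated cells). All 11 markers fell from Untreated to pMXs. With Tet2-WT against pMXs 5 fell, 5 did not pass and 1, Twist2, rose (5.25 to 7.17 CPM). Of 8 pluripotency markers the sum was 1.75 to 4.12 CPM in Untreated libraries and 209 to 313 CPM in day 5 libraries, mostly Pou5f1, which the cassette supplies, while the late markers Zfp42 and Dppa5a were below the filter. Tet2 RNA was 37.8 to 58.8 CPM without a Tet2 vector, 1176 to 1243 CPM with Tet2-WT, and 1299 to 1403 CPM with Tet2-E except in replicate 100, where it was 581 CPM. Libraries were prepared in 2 sets, with no list of which belong together. Here the replicate numbers 1 and 2 and the numbers 100 and 250 were treated as a set each. This grouping was a guess from the numbers and from how day 5 libraries deviated together, so that joint deviation is no separate check of it. Values within each set are given beside results that they change. Within numbers 1 and 2 the pMXs group has only replicate 2, and within 100 and 250 the Tet2-WT group has only replicate 250. Untreated replicate 100, the lone Untreated library of its set, stood apart: Fos was 279 CPM there against 111 and 105 CPM in replicates 1 and 2. Tet2-E replicate 2, the library with the fewest counts, was the lowest of the 10 day 5 libraries for 7 of the 10 Klf members.

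With pMXs against Untreated, 6 of the 10 Klf genes changed, 4 up and 2 down, and 4 did not pass. LIF, PD0325901, CHIR99021, doxycycline and feeder cells are given for the day 5 cultures only. In all comparisons with Untreated cells, their parts and that of reprogramming cannot be told apart. Klf4 and Klf10 rose and Klf2 fell by more than 2-fold, Klf9 rose and Klf6 fell by less, and Klf16 rose slightly. Among all genes tested, 70.1% changed in this comparison, 35.0% in each direction, so the family's share of 60.0% was near that of the transcriptome. The median log2 fold change was 0.18 over the 10 members and 0.00 over all genes.

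**Figure D1:**
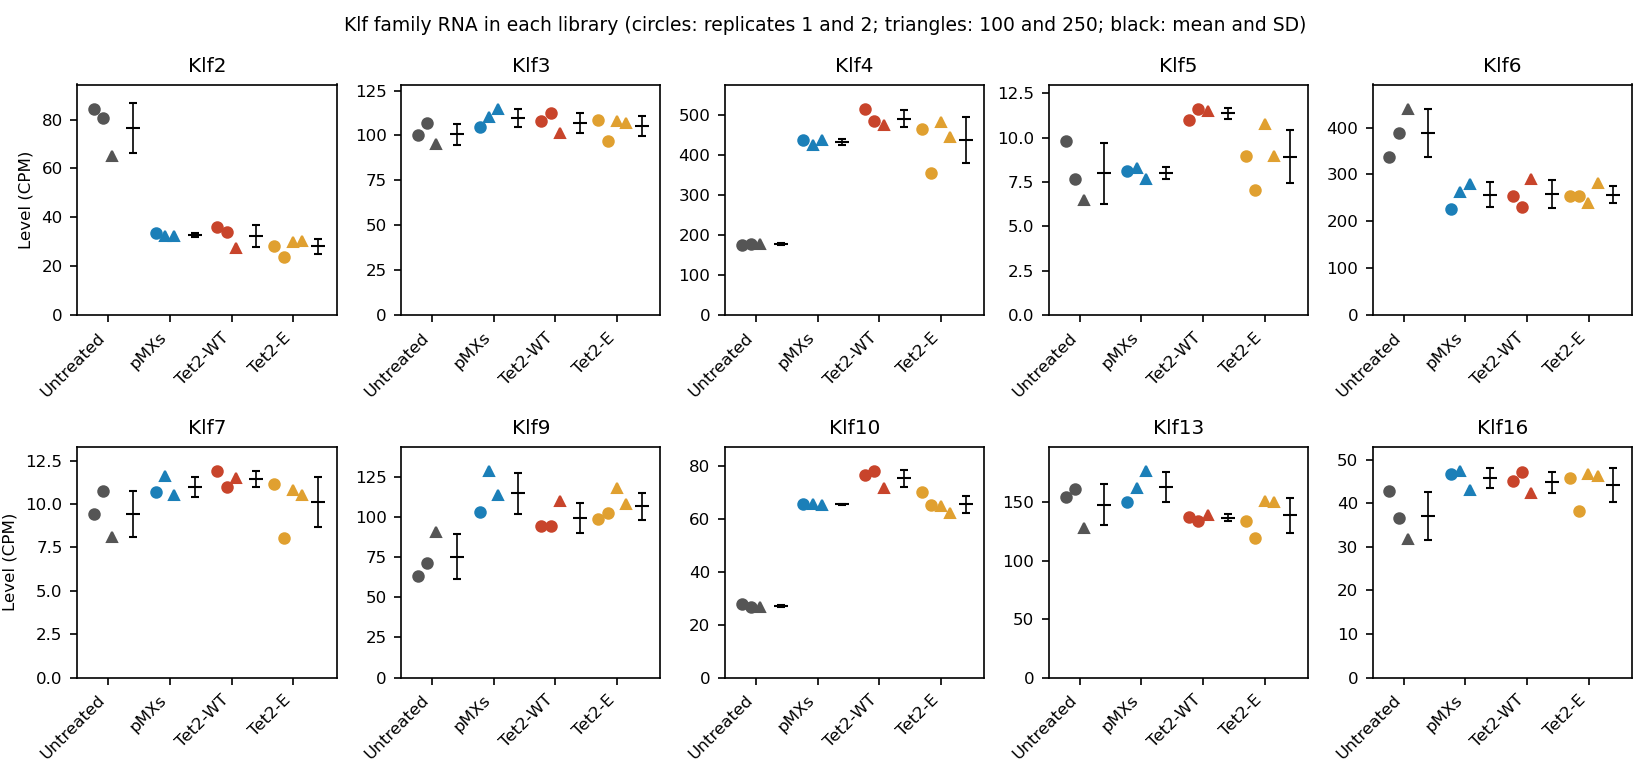
Level of each Klf member in every library, in CPM on linear axes that start at 0, by group. Circles are replicates 1 and 2, triangles replicates 100 and 250, and black marks give the group mean and SD; Klf2, Klf4, Klf6, Klf9 and Klf10 show no overlap between Untreated and day 5 libraries.

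Klf2, a shear-stress and quiescence factor of endothelium and T cells that also serves naive pluripotency, reached 84.2, 80.7 and 65.1 CPM in the Untreated libraries 1, 2 and 100. In the pMXs libraries 2, 100 and 250 it was 33.7, 32.3 and 32.3 CPM. Every day 5 library lay below every Untreated library, at 23.7 to 36.1 CPM. Klf2 fell by 1.23 ± 0.12 on the log2 scale with pMXs (edgeR adjusted p = 2.22e-07), from 76.7 ± 10.2 to 32.8 ± 0.84 CPM (SD, n = 3 and 3). The drop was 1.24 ± 0.12 with Tet2-WT and 1.44 ± 0.11 with Tet2-E, each against Untreated cells. Within replicate numbers 1 and 2 the log2 fold change with pMXs was -1.29, and within 100 and 250 it was -1.01.

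Klf4 is the reprogramming factor of the family and in the body a gene of differentiating epithelia. Its level was nearly the same in Untreated replicates 1, 2 and 100, at 175, 178 and 178 CPM. The pMXs replicates 2, 100 and 250 held 438, 425 and 438 CPM, and the Tet2-WT replicates 1, 2 and 250 held 514, 485 and 474 CPM. The Tet2-E replicates 1, 2, 100 and 250 spread most, at 465, 355, 483 and 444 CPM. No day 5 library overlapped the Untreated ones. Klf4 rose with pMXs by 1.29 ± 0.09 on the log2 scale (adjusted p = 9.46e-09), a 2.45-fold change. The rise was 1.47 ± 0.09 with Tet2-WT and 1.30 ± 0.09 with Tet2-E. The counts do not separate cassette RNA from RNA of the chromosomal gene, so the 177 CPM of the Untreated cells marks what was counted without doxycycline, and how much of it remained at day 5 cannot be told. The other cassette genes started near 0: Pou5f1 went from 2.32 to 211 CPM (6.49 ± 0.20 on the log2 scale) and Sox2 from 3.5 to 228 CPM (6.02 ± 0.21). Among day 5 libraries, Tet2-WT replicate 1 was the highest and Tet2-E replicate 2 the lowest for Klf4, Pou5f1, Sox2 and Myc alike.

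Klf5, an epithelial and embryonic stem cell factor, was among the lowest members. Untreated replicates 1, 2 and 100 held 9.82, 7.66 and 6.47 CPM of it, beside 8.12, 8.31 and 7.67 CPM for pMXs replicates 2, 100 and 250. The groups overlapped and the test did not pass (log2 fold change 0.01 ± 0.16, 95% interval -0.33 to 0.34, adjusted p = 0.974). Of the members tied to embryonic stem cells, Klf4 was thus higher, Klf2 lower and Klf5 not distinguishable at day 5 with the empty vector.

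Klf10 and Klf6, both fast-response genes, went in opposite directions. For Klf10, the Untreated libraries 1, 2 and 100 gave 27.7, 26.9 and 26.9 CPM, and the pMXs libraries 2, 100 and 250 gave 65.7, 65.9 and 65.6 CPM. The 3 pMXs values differed from each other by less than 1 CPM. Klf10 rose by 1.28 ± 0.07 on the log2 scale (adjusted p = 2.2e-10), with 1.27 within replicate numbers 1 and 2 and 1.29 within 100 and 250. The rise was 1.48 ± 0.07 with Tet2-WT and 1.27 ± 0.06 with Tet2-E.

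Klf6, a broadly expressed member known as a tumor suppressor and injury-response gene, was the most variable across Untreated libraries in absolute terms. Untreated replicates 1, 2 and 100 were at 337, 388 and 439 CPM, while pMXs replicates 2, 100 and 250 were at 227, 263 and 279.7 CPM. All day 5 libraries, at 227 to 291 CPM, lay below all Untreated ones. Klf6 fell by 0.60 ± 0.11 on the log2 scale with pMXs (adjusted p = 0.000179), by 0.59 ± 0.11 with Tet2-WT and by 0.59 ± 0.10 with Tet2-E. Without Untreated replicate 100, where Klf6 and the immediate early gene Fos were highest, the change with pMXs was -0.50 (adjusted p = 0.000749).

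Immediate early genes, the class that serum and growth factors switch on within minutes, were fixed as a list of 14. With pMXs 3 rose, 8 fell and 3 did not pass, with a median log2 fold change of -0.99. Over all genes tested, 70.1% changed. Their summed level was 1228 to 1811 CPM in Untreated libraries and 749 to 907 CPM with pMXs. Egr3 (from 21.1 to 0.13 CPM) and Egr1 (from 375 to 6.84 CPM) had the largest falls, and Atf3 (4.82 to 12.4 CPM) and Dusp1 (112 to 199 CPM) rose. Klf6 thus moved with the 8 and Klf10 with the 3.

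Of the 4 members that bind Sin3, Klf10 (above), Klf9 and Klf16 rose and Klf13 did not pass. Klf9, a glucocorticoid- and thyroid hormone-responsive gene, had 63.4, 71.8 and 90.9 CPM in the Untreated libraries 1, 2 and 100. Its level in the pMXs libraries 2, 100 and 250 was 103, 129 and 114 CPM. The groups did not overlap, and Klf9 rose by 0.61 ± 0.12 on the log2 scale (adjusted p = 0.000325), by 0.40 ± 0.12 with Tet2-WT and by 0.51 ± 0.11 with Tet2-E. In both Untreated and pMXs groups the libraries numbered 100 were the highest. Within replicate numbers 1 and 2 the change with pMXs was 0.61, and within 100 and 250 it was 0.42. Of 6 glucocorticoid response genes tested, 2 rose with pMXs (Dusp1, and Fkbp5 by 0.80) and 3 fell. Sgk1, by 2.69, and Errfi1, by 1.94, had the largest falls. Over all genes tested, 70.1% changed.

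Klf16 stood at 42.8, 36.6 and 31.8 CPM for Untreated replicates 1, 2 and 100, against 46.7, 47.3 and 43.1 CPM for pMXs replicates 2, 100 and 250. The highest Untreated and lowest pMXs libraries differed by less than 1 CPM. Klf16 rose by 0.30 ± 0.10 on the log2 scale (adjusted p = 0.0164), a call that was lost without Untreated replicate 100 (0.20, adjusted p = 0.0798), without pMXs replicate 100 (0.28, adjusted p = 0.0558) and within replicate numbers 1 and 2 (0.23, adjusted p = 0.103). It also passed with Tet2-WT (0.27 ± 0.10, adjusted p = 0.0256) and for the Tet2-E group (0.26 ± 0.10, adjusted p = 0.0266), although the libraries overlapped there. With Tet2-WT that call was lost without Untreated replicate 2 or 100 or without Tet2-WT replicate 1 or 2 (adjusted p = 0.0655, 0.125, 0.0548 and 0.0889), and within replicate numbers 1 and 2 (0.21, adjusted p = 0.0566). With Tet2-E it was lost without Untreated replicate 2 or 100 or without Tet2-E replicate 100 or 250 (adjusted p = 0.0713, 0.145, 0.0514 and 0.062), within replicate numbers 1 and 2 (0.08, adjusted p = 0.461) and in a fit of only the 2 groups (0.26, adjusted p = 0.0596). Within 100 and 250 the Klf16 value was larger in each comparison: 0.51 with pMXs, 0.41 with Tet2-WT and 0.54 with Tet2-E.

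Klf13, a factor of lymphocytes and heart, had 154, 161 and 128 CPM in the Untreated libraries 1, 2 and 100. The pMXs libraries 2, 100 and 250 had 150, 163 and 176 CPM, which overlaps the Untreated range (log2 fold change 0.14 ± 0.10, adjusted p = 0.225). Its sign depended on the set of replicate numbers. With Tet2-E against Untreated the log2 fold change was -0.31 within replicate numbers 1 and 2 (adjusted p = 0.00174) and 0.24 within 100 and 250 (adjusted p = 0.0372), beside -0.09 (adjusted p = 0.408) over all libraries. With pMXs it was -0.07 (adjusted p = 0.529) and 0.40 (adjusted p = 0.00146), and with Tet2-WT -0.22 (adjusted p = 0.0176) and 0.12 (adjusted p = 0.345). The second of each pair rests on the lone Untreated replicate 100, assumed to vary like the other groups. The first pMXs value likewise rests on pMXs replicate 2 alone, and the second Tet2-WT value on Tet2-WT replicate 250 alone. E030018B13Rik, on the opposite strand, overlaps Klf13 in GENCODE, and the sources used here give no strand setting for the counts, so reads of the 2 genes may not be separated.

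Klf3 and Klf7 did not pass in any of the 3 comparisons with Untreated cells. Klf3, the CtBP-binding repressor, ranged from 95.04 to 107 CPM in Untreated, 105 to 115 CPM in pMXs, 101 to 112 CPM in Tet2-WT and 97.2 to 109 CPM in Tet2-E libraries. The interval of its log2 fold change with pMXs was -0.03 to 0.28. Klf7, a factor of neurons and adipocyte precursors, was 8.08 to 10.7 CPM in Untreated libraries and 8.03 to 11.9 CPM at day 5. Its log2 fold change was 0.22 ± 0.13 with pMXs (adjusted p = 0.14) and 0.28 ± 0.13 with Tet2-WT (adjusted p = 0.0606), where it passed without Untreated replicate 2 (0.38, adjusted p = 0.0254) and within replicate numbers 100 and 250 (0.51, adjusted p = 0.0429), beside 0.18 (adjusted p = 0.263) within 1 and 2. Within replicate numbers 100 and 250, which rest on 1 Untreated library, Klf3 and Klf7 passed with pMXs (0.24, adjusted p = 0.0368, and 0.46, adjusted p = 0.0373). Within 1 and 2 their estimates were 0.02 and 0.09. Klf3, Klf7 and Klf9 also overlap other annotated genes (small RNAs or noncoding transcripts), which were not separated here.

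**Figure D2:**
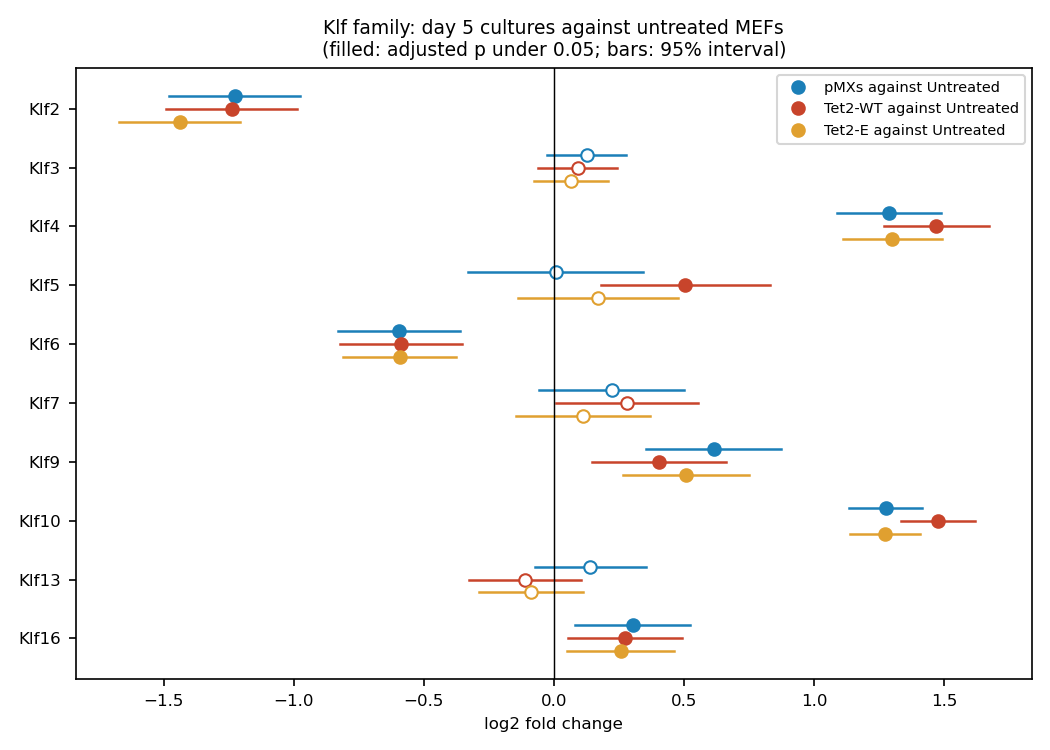
Log2 fold change of each Klf member in the 3 day 5 groups against Untreated cells (points), with the 95% interval of edgeR's fit as bars and filled points for adjusted p under 0.05. Klf4, Klf9, Klf10 and Klf16 lie to the right and Klf2 and Klf6 to the left of 0 in all 3 comparisons, which share the Untreated libraries.

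The 3 comparisons with Untreated cells share the Untreated libraries and so are not separate evidence. Side by side, 6 of 10 members were called with pMXs (background 70.1%), 7 with Tet2-WT (5 up and 2 down; background 72.7%, 37.3% up and 35.3% down) and 6 with Tet2-E (4 up and 2 down; background 72.8%, 36.7% up and 36.1% down). The seventh gene with Tet2-WT was Klf5, which rose by 0.51 ± 0.15 on the log2 scale (adjusted p = 0.00737). With Tet2-E, Klf5 had 0.17 ± 0.14 (adjusted p = 0.306) and passed without Untreated replicate 1 (0.35, adjusted p = 0.0435) and within 100 and 250 (0.60, adjusted p = 0.0126), beside -0.12 (adjusted p = 0.52) within 1 and 2. For Tet2-WT the Klf5 values within those sets were 0.83 and 0.37, and both passed. Libraries did not overlap for 6, 7 and 5 members, where 72.0%, 74.3% and 68.7% of all genes did not overlap. For Klf2, Klf4, Klf6 and Klf10 the call held within both sets of replicate numbers in each of the 3 comparisons, as the plot of changes within sets shows. For Klf9 it held in 5 of the 6, the exception being Tet2-WT within 100 and 250 (0.28), where each group had 1 library.

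**Figure D3:**
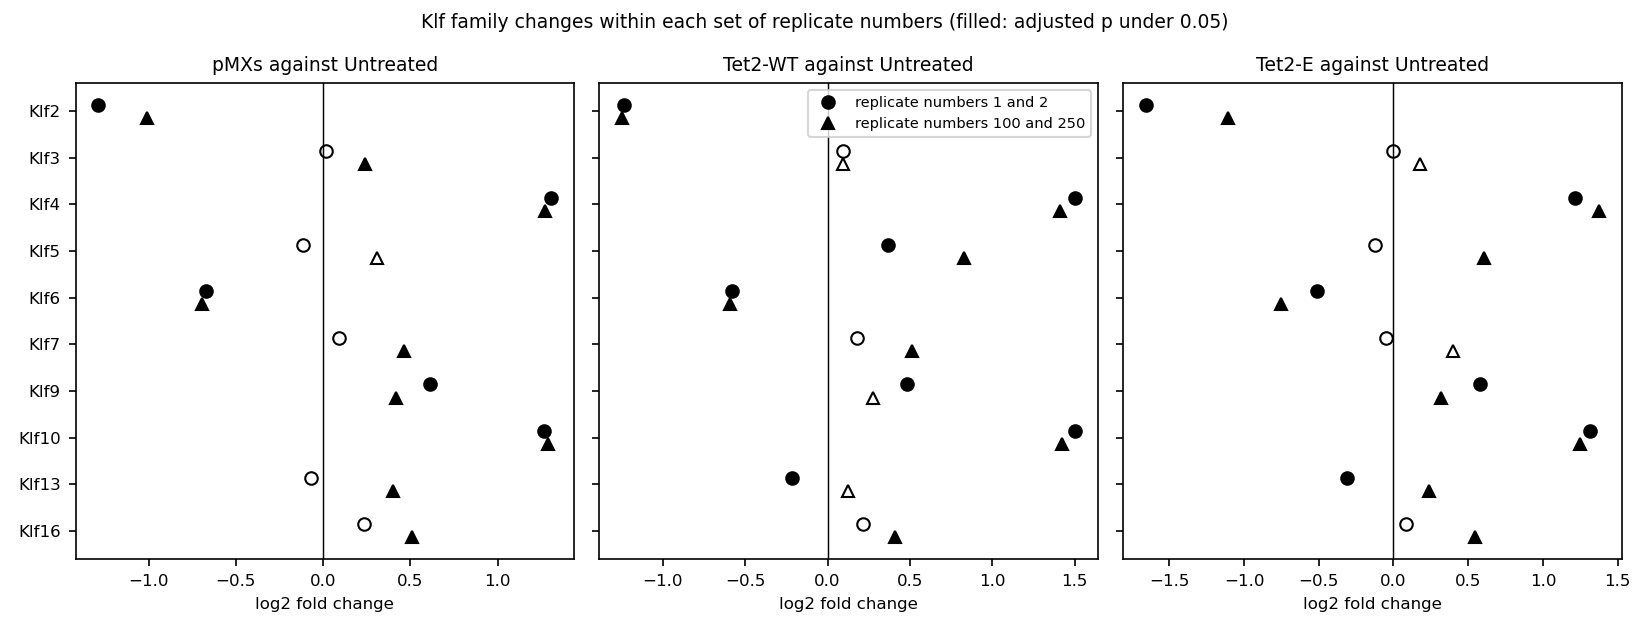
Log2 fold change of each Klf member against Untreated cells, computed within replicate numbers 1 and 2 (circles) and within 100 and 250 (triangles), filled where the adjusted p was under 0.05. Symbols nearly coincide for Klf4, Klf6 and Klf10 with pMXs, while Klf13 lies on opposite sides of 0 in all 3 panels.

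Between genes, levels were compared per kilobase of exon, with lengths from GENCODE vM21 (GRCm38), which may differ from the annotation used for counting and do not describe the cassette. In Untreated cells Klf6 stood highest, at 91.8 ± 12.1 CPM per kb, followed by Klf4 at 58.5 ± 0.65 and Klf2 at 41.5 ± 5.51. Next came Klf13 (22.2 ± 2.62), Klf3 (18.7 ± 1.09), Klf9 (16.8 ± 3.14) and Klf16 (13.9 ± 2.06), whose neighbours in this order differed by less than the sum of their SDs. Klf10 (7.09 ± 0.13), Klf5 (1.53 ± 0.33) and Klf7 (1.17 ± 0.16) were lowest.

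At day 5 with pMXs, Klf4 stood first at 143 ± 2.46 CPM per kb and Klf6 second at 60.7 ± 6.38. Klf2 had dropped from the third place to the sixth, at 17.7 ± 0.45 CPM per kb, beside Klf10 at 17.2 ± 0.05 and Klf16 at 17.1 ± 0.84. Klf9, Klf13, Klf3, Klf2, Klf10 and Klf16 thus all lay within 17.1 to 25.7 CPM per kb. The share of Klf4 in the summed CPM of the 10 members was 16.7% to 17.4% in Untreated libraries and 33.1% to 39.9% at day 5. The sum of the other 9 members was 828 to 891 CPM in Untreated libraries and 715 to 844 CPM at day 5.

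**Figure D4:**
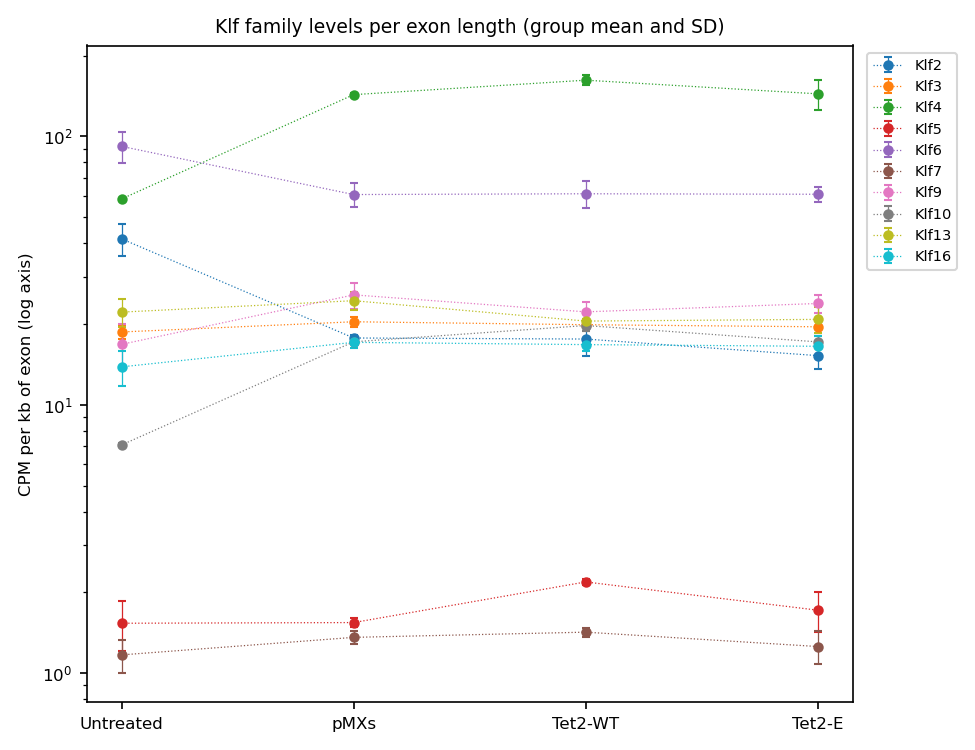
Group mean and SD of each Klf member in CPM per kb of exon, on a log axis, in the 4 groups; dotted lines only join the points of 1 gene. Klf4 is the highest member in every day 5 group, and Klf5 and Klf7 lie near 1 to 2 CPM per kb in all groups.

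The next question was what working Tet2 changes in these genes at day 5. With Tet2-WT against pMXs, 1 of the 10 members was called, Klf5, against 12.5% of all genes tested and 6.01% called higher and 6.52% lower, so the family's share was near the background. Klf5 was 11.02, 11.6 and 11.5 CPM in Tet2-WT replicates 1, 2 and 250, above all pMXs libraries (7.67 to 8.31 CPM) and all Tet2-E libraries (7.06 to 10.8 CPM). Klf5 rose by 0.50 ± 0.15 on the log2 scale (adjusted p = 0.0458). The call held in 6 of 15 re-tests, among them DESeq2 and edgeR with a term for the set (0.50, adjusted p = 0.0443). With the replicate number as a block the value was 0.48 (adjusted p = 0.0752), within replicate numbers 1 and 2 it was 0.48 (adjusted p = 0.172), and within 100 and 250 it was 0.52 (adjusted p = 0.0996). Leaving out any 1 of the 6 libraries gave 0.47 to 0.53, and the call was lost in each case, at an adjusted p of 0.148, 0.127, 0.107, 0.0967, 0.0913 and 0.086 without pMXs replicate 250, Tet2-WT replicate 2, pMXs replicate 100, Tet2-WT replicate 1, pMXs replicate 2 and Tet2-WT replicate 250.

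Klf10 was just outside the threshold with Tet2-WT. Its level was 76.7, 78.1 and 71.9 CPM in Tet2-WT replicates 1, 2 and 250, above all pMXs libraries and all Tet2-E libraries (70.2, 65.3, 64.9 and 62.5 CPM in replicates 1, 2, 100 and 250). The log2 fold change was 0.20 ± 0.06 against pMXs (adjusted p = 0.0506) and 0.20 ± 0.06 against Tet2-E (adjusted p = 0.068). DESeq2 called both (adjusted p = 0.0275 and 0.0273). The difference from pMXs also passed with the filter of 1 CPM in 3 libraries (adjusted p = 0.0447), in a fit of only the 2 groups (adjusted p = 0.0384) and without Tet2-WT replicate 250 (0.24, adjusted p = 0.0432). It did not pass with the replicate number as a block (0.18, adjusted p = 0.0977), within 1 and 2 (0.24, adjusted p = 0.147) or within 100 and 250 (0.13, adjusted p = 0.466). Against Tet2-E it passed without Tet2-E replicate 1 (0.24, adjusted p = 0.0412), and it did not pass within 1 and 2 (0.19, adjusted p = 0.154) or within 100 and 250 (0.18, adjusted p = 0.403).

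Klf4 was higher in each Tet2-WT library than in each pMXs library, but its log2 fold change of 0.18 ± 0.09 (95% interval -0.02 to 0.38) did not pass (adjusted p = 0.244). Klf13 was 137, 134 and 139 CPM in Tet2-WT replicates 1, 2 and 250, below the 3 pMXs libraries, and did not pass either (-0.25 ± 0.10, adjusted p = 0.125). A fit of only the 6 libraries of the 2 groups called Klf13 (adjusted p = 0.0232), and within 1 and 2 and within 100 and 250 it was -0.15 and -0.28 (adjusted p = 0.444 and 0.082). Libraries of Tet2-WT and pMXs did not overlap for 4 members, Klf4, Klf5, Klf10 and Klf13, where 34.6% of all genes did not overlap. Klf2, Klf3, Klf6, Klf7 and Klf16 had estimates between -0.03 and 0.06, and the widest of their 95% intervals ran from -0.21 to 0.33 (Klf7). Klf9 had -0.21 ± 0.12 (adjusted p = 0.301).

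With Tet2-E against pMXs none of the 10 members was called by edgeR. An unadjusted p under 0.05 was found for 1 of the 10, Klf13, and for 1363 of all 14607 genes tested. Over all genes 0.0479% were called, 7 genes, against 93 genes with the replicate number as a block, and DESeq2 called none of the members either. Klf13 was 134, 119.6, 151 and 150.5 CPM in Tet2-E replicates 1, 2, 100 and 250 and overlapped the pMXs range (-0.23 ± 0.09, adjusted p = 0.452). Klf2, at 28.4, 23.7, 30.1 and 30.5 CPM, was the member whose libraries did not overlap those of pMXs (-0.21 ± 0.11, adjusted p = 0.585), where 10.2% of all genes did not overlap. Klf4, Klf6 and Klf10 had estimates within 0.02 of 0, with 95% intervals of -0.17 to 0.20, -0.22 to 0.22 and -0.13 to 0.13. Without Tet2-E replicate 2, the Klf4 estimate was 0.10 (adjusted p = 0.882), and without replicate 100, where Tet2 RNA was lowest, it was -0.04 (adjusted p = 0.894).

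**Figure D5:**
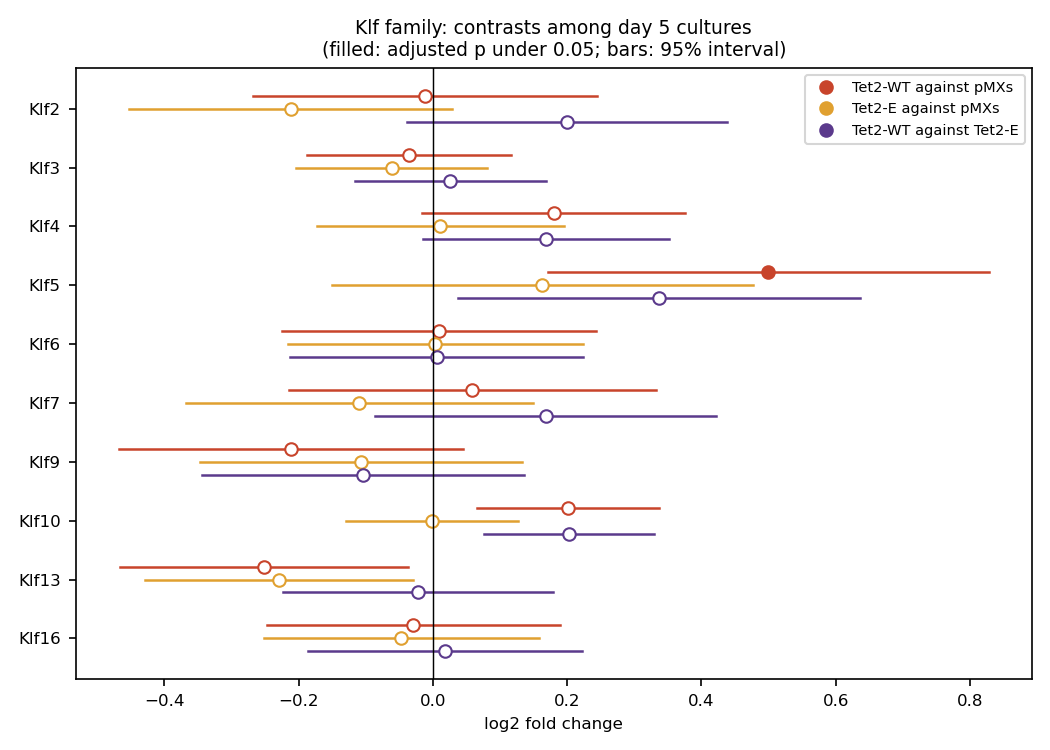
Log2 fold change of each Klf member among the day 5 groups (points), with 95% intervals of edgeR's fit as bars and filled points for adjusted p under 0.05. Klf5 with Tet2-WT against pMXs is the filled point; the estimates run from -0.25 to 0.50.

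The difference between the 2 Tet2 vectors was tested directly. None of the 10 members was called with Tet2-WT against Tet2-E by edgeR (background 4.62%, 2.43% higher and 2.19% lower), and DESeq2 called 1 (Klf10). An unadjusted p under 0.05 was found for 2 members (Klf5 and Klf10) and for 2284 of all 14607 genes tested. Libraries did not overlap for the same 2 members, where 15% of all genes did not overlap. Klf5 was higher in every Tet2-WT than in every Tet2-E library (0.34 ± 0.14, 95% interval 0.04 to 0.64, adjusted p = 0.24). Klf2 differed between the sets of replicate numbers: within 1 and 2 it was higher with Tet2-WT (0.42, adjusted p = 0.00954), and within 100 and 250 it was -0.14 (adjusted p = 0.642), beside 0.20 ± 0.11 (adjusted p = 0.444) over all libraries.

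The rest of the family and its relatives were described from lists. Beside the counts from here on, 70.1% of all genes tested changed with pMXs against Untreated. The share was 12.5% with Tet2-WT against pMXs and 0.0479% with Tet2-E against pMXs. Of 7 other Klf genes, 4 were tested; Klf1, Klf14 and Klf17 were below the filter. With pMXs 2 of the 4 rose, Klf15 from 2.52 to 4.15 CPM (0.71 ± 0.17, adjusted p = 0.00133) and Klf8 from 8.24 to 11 CPM (0.42 ± 0.15, adjusted p = 0.0201), and 2 did not pass. With Tet2-WT against pMXs none of the 4 was called by edgeR or DESeq2. In that comparison 1 of them had an unadjusted p under 0.05, as did 3684 of all 14607 genes tested. Klf11, a TGF-beta-responsive relative of Klf10, had the smallest p (-0.34 ± 0.15, adjusted p = 0.164). Of 9 Sp factors, which share the zinc fingers of the family, 7 were tested. With pMXs 5 rose and 1 fell: Sp9, a neurodevelopmental factor, went from 1.16 to 19.9 CPM, Sp5, a target of beta-catenin, from 0.08 to 1.2 CPM, and Sp7, the osteoblast factor, from 3.76 to 0.25 CPM. Sp5 fell with Tet2-WT against pMXs, from 1.2 to 0.62 CPM (-0.99 ± 0.26, adjusted p = 0.021), a call that DESeq2 did not make. The median log2 fold change of the 7 was 0.34 with pMXs against Untreated and -0.13 with Tet2-WT against pMXs.

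Among 12 corepressor and coactivator genes, 7 rose, 1 fell and 4 did not pass with pMXs. Sap30, a subunit of the Sin3 complex, rose from 11.7 to 78.5 CPM (2.75 ± 0.10) and the acetyltransferase gene Kat2a from 65.2 to 101 CPM, while Sin3b fell from 83.9 to 68.8 CPM. The median of the 12 was 0.32. With Tet2-WT against pMXs none was called by edgeR, and DESeq2 called 1, Sin3a. An unadjusted p under 0.05 was found for 1 of the 12 and for 3684 of all 14607 genes tested, and the median of the 12 was -0.05. With Tet2-E against pMXs none was called by edgeR or DESeq2, and 0 had an unadjusted p under 0.05, against 1363 of all 14607 genes tested. Of 8 genes for ubiquitin ligases reported to act on Klf proteins, 1 rose and 4 fell with pMXs, Fbxw7 at 1.011 ± 0.08 and Fbxo32 at -0.70 ± 0.15, and their median was -0.15. With Tet2-WT against pMXs both rose, Fbxo32 by 0.70 ± 0.15 (adjusted p = 0.00581) and Fbxw7 by 0.28 ± 0.08 (adjusted p = 0.027), and the other 6 did not pass. Their proteins and those of the Klf genes were not measured.

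Of 12 genes upstream of Klf transcription, 2 rose and 6 fell with pMXs (median -0.30). Il6st, the receptor chain through which LIF signals, fell from 763 to 245 CPM (-1.64 ± 0.08), and Mef2c, which drives Klf2 in endothelium, from 57.9 to 29.7 CPM. Mef2d and Tgfbr1 rose by 0.34 and 0.32 on the log2 scale. With Tet2-WT against pMXs 3 fell, among them Il6st (-0.69 ± 0.08, adjusted p = 7.01e-05) and Lifr (-0.54 ± 0.13, adjusted p = 0.0142), and 9 did not pass (median -0.22).

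Of 18 genes reported as targets of Klf factors, 15 were tested, and 8 rose and 6 fell with pMXs (median 0.19). Most genes changed in that comparison, 70.1% of all tested. Cdh1, the epithelial cadherin, went from 0.9 to 305 CPM and Nanog from 0.6 to 13.6 CPM, while the smooth muscle genes Acta2 and Tagln went from 3065 to 522 CPM and from 1588 to 291 CPM. With Tet2-WT against pMXs 4 rose and 3 fell (median 0.05). Lgals3, reported as repressed by Klf3, rose from 138 to 370 CPM (1.42 ± 0.12, adjusted p = 4.64e-06), while Klf3 itself had an estimate of -0.03 ± 0.07. Thbd, reported as a target of Klf2 in endothelium, fell from 106 to 50.2 CPM (-1.07 ± 0.15), while Klf2 had an estimate of -0.01 ± 0.12. With Tet2-E against pMXs 1 rose, Lgals3 (0.79 ± 0.11, adjusted p = 0.0229), and 0 fell.

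Markers of other cell types were read beside these results, since Klf2 and Klf4 are strong in endothelium and Klf4 and Klf5 in epithelium. Of 8 endothelial markers the sum was 12.6 to 21.3 CPM in Untreated libraries and 73.4 to 89.2 CPM at day 5, and Pecam1, Tie1 and Emcn were below the filter. Tek made up most of the sum at day 5 (73.9 CPM with pMXs, 3.34 CPM in Untreated cells), whereas Erg, at 6.62 CPM, was higher than Tek in Untreated cells. From Untreated to pMXs 2 of the 5 tested rose (Tek by 4.47 and Kdr by 1.09 on the log2 scale) and 2 fell (Esam at -2.23 and Erg at -1.73). From pMXs to Tet2-WT 0 rose and 2 fell, Kdr (-1.85) and Erg (-1.59). Of 6 keratinocyte markers the sum was 2.267 to 2.82 CPM in Untreated and 4.33 to 8.63 CPM in day 5 libraries. Trp63 was the highest of them in Untreated cells (1.44 CPM) and Krtdap with pMXs (3.28 CPM). With pMXs 2 of the 5 tested rose and 1 fell. With Tet2-WT against pMXs Krt14 rose (0.3 to 1.89 CPM) and the other 4 did not pass. In that comparison 2 of the 5 had estimates below 0, and Trp63 went from 1.95 to 0.81 CPM. For the 7 macrophage markers in the table the sum was 4.58 to 5.45 CPM in Untreated, 81 to 94.6 CPM in pMXs, 213 to 309 CPM in Tet2-WT and 93.4 to 127 CPM in Tet2-E libraries, and Ptprc and Adgre1 were below the filter. Laptm5 made up most of the sum at day 5 (80 CPM with pMXs and 251 CPM with Tet2-WT), but was 0.26 CPM in Untreated cells, where Lyz2 (2.07 CPM), Cd68 (1.41 CPM) and Csf1r (1.09 CPM) were higher. From Untreated to pMXs 3 of the 5 tested rose (Laptm5, Itgam and Cd68) and 2 fell, Lyz2 (log2 fold change -4.01) and Csf1r (-2.605). From pMXs to Tet2-WT 4 rose, Itgam by 3.18, Csf1r by 2.25, Cd68 by 1.72 and Laptm5 by 1.65, and Lyz2 did not pass. The part of these cell types in the Klf values was not tested.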

How the data were processed

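Poly(A) RNA libraries from a stranded mRNA kit were sequenced in pairs of short reads, per the labels' protocols. The authors deposited raw read counts per gene, and the submitters' processing notes name STAR 2.6.1a, SAMtools 1.7, bedtools 2.27.1, featureCounts 1.6.2, R 3.6.2, DESeq2 1.26.0 and mm9. Whether featureCounts used strand is not given in the sources used here. Samples were grouped by their titles.

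The deposited counts entered edgeR 4.0.16 (R 4.3.3): filterByExpr (count minimum 10, total minimum 15), TMM scaling and robust quasi-likelihood tests from 1 model of group means over all 13 libraries. Adjusted p-values are Benjamini-Hochberg values over 14607 genes within a comparison. A gene rose, fell, changed or was called when that value was under 0.05. Fold changes are given ± an approximate standard error (the absolute change over the square root of F) and CPM ± SD. With library totals of 14052646 to 26265382 counts, the chi-square per degree of freedom was 6.63 to 42.9 over replicate pairs. Over all genes together, counting error was thus small beside the spread between replicates. This need not hold for members with few counts, such as Klf5 (112 to 217 in pMXs libraries). The p-values measure the spread between libraries, with counting error included.

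Pairing was checked on residuals. Across the day 5 groups, same-number pairs gave correlations of 0.12 to 0.34 (8 pairs), other pairs of the same set at 0.08 to 0.36 and pairs of opposite sets at -0.42 to -0.05. Same-number pairs with Untreated libraries gave -0.04 to 0.17. Same-number pairs across the day 5 groups fell within the range of other same-set pairs, so the check gave no sign of a link by number beyond the set. The sets themselves were guessed partly from these correlations. The main model held no term for number or set, and fits with a replicate block or a term for the set were run as alternatives.

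The members and gene lists were chosen with earlier results of these data known. All 10 members are named. From other lists the text mostly names up to 2 called genes per direction, ranked by size of change. These had a mean of 1 CPM or more in either group, and where none was called, those of smallest p are named. The naming of cell type markers did not keep to this rule. Alternatives were edgeR with DESeq2 size factors, DESeq2 1.42.0, a filter of 1 CPM in 3 libraries or none, a replicate block, a term for the set, contrasts within sets, a fit restricted to the 2 groups, and omission of each library in turn. On simulated data for Tet2-WT against pMXs (14355 genes), 78% of genes changed 2-fold and 60% of those changed 1.5-fold were recovered. In that simulation 200 genes were changed, every gene otherwise had the same mean in all 4 groups, and 6 unchanged genes were called. Fewer genes changed there than were called in the data (1830), and changes under 1.5-fold were not simulated. The recovery of smaller changes thus cannot be read from it. No protein sequences were used here.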

Additional observations from a re-analysis of the deposited data

Results flagged for a closer look

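Klf16 was 38.3 CPM in Tet2-E replicate 2, against 45.7, 46.6 and 46.2 CPM in Tet2-E replicates 1, 100 and 250. The gap to the nearest of the others was a larger part of the group's range than Dixon's 95% limit for 4 samples allows (0.896 of the range). Tet2-E was the only group large enough for this check, so 10 sets of 4 values were examined, and chance flags about 1 in 20. Without that library the Klf16 estimate against pMXs was 0.01 (adjusted p = 0.998) and against Untreated cells 0.32 (adjusted p = 0.00669).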

How the results depend on the processing

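No called change of a Klf member reversed its sign under any alternative run. Against Untreated cells, 87 of 90 re-tests of called members stayed on the same side of the threshold with pMXs, 99 of 105 with Tet2-WT and 90 of 96 with Tet2-E. Klf5 with Tet2-WT against pMXs stayed in 6 of 15 re-tests. Fits that leave a group with 1 library assume that it varies like the others. The cause was not tested for the changes below.

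The count of Klf members called with Tet2-WT against pMXs (1) was 2 with DESeq2, 2 with the filter of 1 CPM in 3 libraries, 3 with only the 2 groups compared, 0 with the replicate block, 0 within replicate numbers 1 and 2, 0 within 100 and 250, and 0 to 1 when libraries were left out, the 1 being Klf10 without Tet2-WT replicate 250. With Tet2-WT against Tet2-E (0) it was 1 with DESeq2, 1 within 1 and 2, and 0 to 1 when libraries were left out, the 1 being Klf10 without Tet2-E replicate 1. Over all genes, the 7 called with Tet2-E against pMXs became 141 with DESeq2, 17 with no filter, 93 with the replicate block, 152 with a term for the set, 103 within 1 and 2, 83 within 100 and 250, 0 with only the 2 groups, and 1 to 50 when libraries were left out (50 without Tet2-E replicate 100). The 675 called with Tet2-WT against Tet2-E became 1052 with a term for the set, 1015 within 1 and 2, and 335 to 675 when libraries were left out (335 and 339 without Tet2-WT replicate 1 or 2). The 1830 with Tet2-WT against pMXs became 1097 to 1821 when libraries were left out: 1175 and 1097 without pMXs replicate 100 or 250, and 1107 and 1135 without Tet2-WT replicate 1 or 2. The replicate block changed no call of a member other than Klf5 with Tet2-WT against pMXs (0.48, adjusted p = 0.0752).

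The other sign changes were all of members that had not passed. With DESeq2 size factors Klf5 with pMXs against Untreated was -0.0010, Klf10 with Tet2-E against pMXs 0.00017 and Klf6 with Tet2-WT against Tet2-E -0.0029; with DESeq2 the first and last were -0.00087 and -0.0029, and with the 1 CPM filter Klf5 was -0.0037. With the replicate block Klf4 with Tet2-E against pMXs was -0.0094. Within replicate numbers 1 and 2 the values were -0.11 for Klf5 and -0.071 for Klf13 (pMXs against Untreated), 0.052 for Klf2 and 0.074 for Klf3 (Tet2-WT against pMXs), -0.094 for Klf4, -0.0055 for Klf5 and 0.044 for Klf10 (Tet2-E against pMXs), -0.069 for Klf6 and 0.095 for Klf13 (Tet2-WT against Tet2-E), and -0.0037 for Klf3, -0.12 for Klf5 and -0.052 for Klf7 (Tet2-E against Untreated). Within 100 and 250 they were -0.058 for Klf6 and 0.033 for Klf16 (Tet2-E against pMXs), -0.14 for Klf2, -0.084 for Klf3 and -0.13 for Klf16 (Tet2-WT against Tet2-E), 0.12 for Klf13 (Tet2-WT against Untreated) and 0.24 for Klf13 (Tet2-E against Untreated). When libraries were left out, Klf5 ranged from -0.13 to 0.19 (pMXs against Untreated). For Tet2-WT against pMXs, Klf2 ranged from -0.093 to 0.095, Klf3 from -0.071 to 0.0037, Klf6 from -0.085 to 0.085 and Klf16 from -0.068 to 0.011. With Tet2-E against pMXs, Klf4 ranged from -0.044 to 0.099, Klf6 from -0.077 to 0.070, Klf10 from -0.039 to 0.022 and Klf16 from -0.086 to 0.013. With Tet2-WT against Tet2-E, Klf3 ranged from -0.0096 to 0.065, Klf6 from -0.089 to 0.081, Klf13 from -0.086 to 0.025 and Klf16 from -0.042 to 0.058.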
